A study of Mus musculus with 12 samples.

Results

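In primary mouse cortical neurons given erinacine S or its solvent, 10 genes of the neuropeptide secretion route were followed. They are the peptide precursors Crh, Adcyap1, Cck and Pnoc, the granins and granin-like proteins Scg2, Scg3, Vgf and Chgb, and the prohormone convertases Pcsk1 and Pcsk2. They were taken by symbol from the deposited expression table, in which 10 of 51912 gene rows carry these names. Levels are in TPM, an abundance scaled to transcript length and library total. All 10 averaged at least 1 TPM over the 12 libraries and entered the tests with 15613 other genes. Crh did so only through its level in DMSO at 48 h, with a mean under 1 TPM at each other combination of treatment and time. The genes were chosen by name, with the measured difference between erinacine S and DMSO at 48 h already known, so that difference is given as a description without a test.

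Erinacine S is a terpenoid of the mushroom Hericium erinaceus, here added at 1 µg/mL. The groups were erinacine S for 48 h, DMSO for 48 h, erinacine S for 16 h and DMSO for 16 h, with 3 libraries each, and DMSO was the solvent control. All cells came from C57BL/6J embryos at E17.5, whose cortices were freed of meninges, dissociated and plated a few hours before the compound was added. The labels do not say whether a repeat stands for a separate litter or dish, so the tests measure the spread between libraries, which may be technical. Throughout, n = 3 libraries per group, an error after a TPM mean is the SD, and a fold change is the difference in mean log2(TPM + 1) with its SE.

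Neuropeptides are made as larger precursors that are packed into dense-core vesicles at the trans-Golgi network, cut there at pairs of basic residues and released by calcium entry. Granins are acidic proteins that aggregate in the same vesicles and are themselves cut into peptides. In the cortex many peptide precursors mark classes of interneurons, and transcription of several of them is known to follow neuronal activity through the factor CREB, which binds the motif TGACGTCA or its shorter core TGACG.

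Promoter sequence from RefSeq (GRCm38.p6) was on hand for 7 of the 10 genes. It is shown because the search below was for the CREB motif in genes that share a secretory route. Capitals mark each TGACG or CGTCA, and each sequence runs 5′ to 3′ on the strand of its gene. For Scg2, Chgb and Pcsk1 30 bases around the full motif are given, and for the others the 110 bases before a RefSeq start. Adcyap1 has another RefSeq start, not shown, with TGACG 242 to 238 bases before it. The Adcyap1 window shown ends at 93199016, upstream of the gene start at 93199422 in the deposited coordinates.
Scg2, chr1:79440076-79440105, minus strand: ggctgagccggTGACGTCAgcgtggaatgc
Chgb, chr2:132781559-132781588, plus strand: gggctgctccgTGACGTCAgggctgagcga
Pcsk1, chr13:75089768-75089797, plus strand: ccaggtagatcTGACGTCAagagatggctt
Adcyap1, chr17:93198907-93199016, plus strand: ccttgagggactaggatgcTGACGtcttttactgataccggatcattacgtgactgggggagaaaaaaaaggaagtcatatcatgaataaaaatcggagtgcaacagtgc
Scg3, chr9:75684057-75684166, minus strand: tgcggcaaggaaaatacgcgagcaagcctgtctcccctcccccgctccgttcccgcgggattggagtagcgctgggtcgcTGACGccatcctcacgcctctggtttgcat
Cck, chr9:121495695-121495804, minus strand: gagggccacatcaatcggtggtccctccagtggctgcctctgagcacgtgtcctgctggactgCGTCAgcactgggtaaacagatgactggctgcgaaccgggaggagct
Pcsk2, chr2:143546023-143546132, plus strand: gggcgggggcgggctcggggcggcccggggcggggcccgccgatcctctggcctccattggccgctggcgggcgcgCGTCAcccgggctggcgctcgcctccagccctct

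The full motif TGACGTCA, which reads the same on both strands, lay in the 250 bases before the start of 3 of these 7 genes and of 1.77% of 27025 genes with a RefSeq promoter. It stood 68 to 61 bases before the start in Scg2, 72 to 65 in Chgb and 78 to 71 in Pcsk1, counted from the RefSeq start. The GENCODE M21 annotation begins these genes further upstream than that start: 110 of the 110 bases before it lie in annotated exon in Chgb, 94 in Scg2 and 31 in Pcsk1. The motif itself lies inside that exon in Chgb and Scg2, and before it in Pcsk1. The core, searched as TGACG and CGTCA so as to cover both strands and counted also inside the full motif, lay in 7 of 7 genes and in 19.8% of all genes. The AP-1 motif TGAGTCA, searched with its reverse complement TGACTCA, lay in 0 of 7 and in 5.16% of all genes. A match describes the letters of these windows and is not a measured site.

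Per length, on the TPM scale, the 10 genes spanned a wide range, and the order of the top and the bottom of the list was similar in all groups. Scg3 led in each group, at 261 ± 9.46 TPM with erinacine S and 228 ± 8.95 TPM in DMSO at 48 h, and at 291 ± 0.651 TPM with erinacine S and 277 ± 8.80 TPM in DMSO at 16 h. Cck came next in all 4 groups, and its libraries never overlapped those of Scg3. Chgb, Scg2, Vgf and Pcsk2 followed, with Scg2 above Chgb only in DMSO at 48 h, where all libraries of Scg2 lay above those of Chgb. Pnoc and Adcyap1 stood near each other at 16 h, where their libraries overlapped in both groups, and apart at 48 h. Crh and Pcsk1 were the lowest pair in every group, and Crh exceeded Pcsk1 only in DMSO at 48 h.

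**Figure D1:**
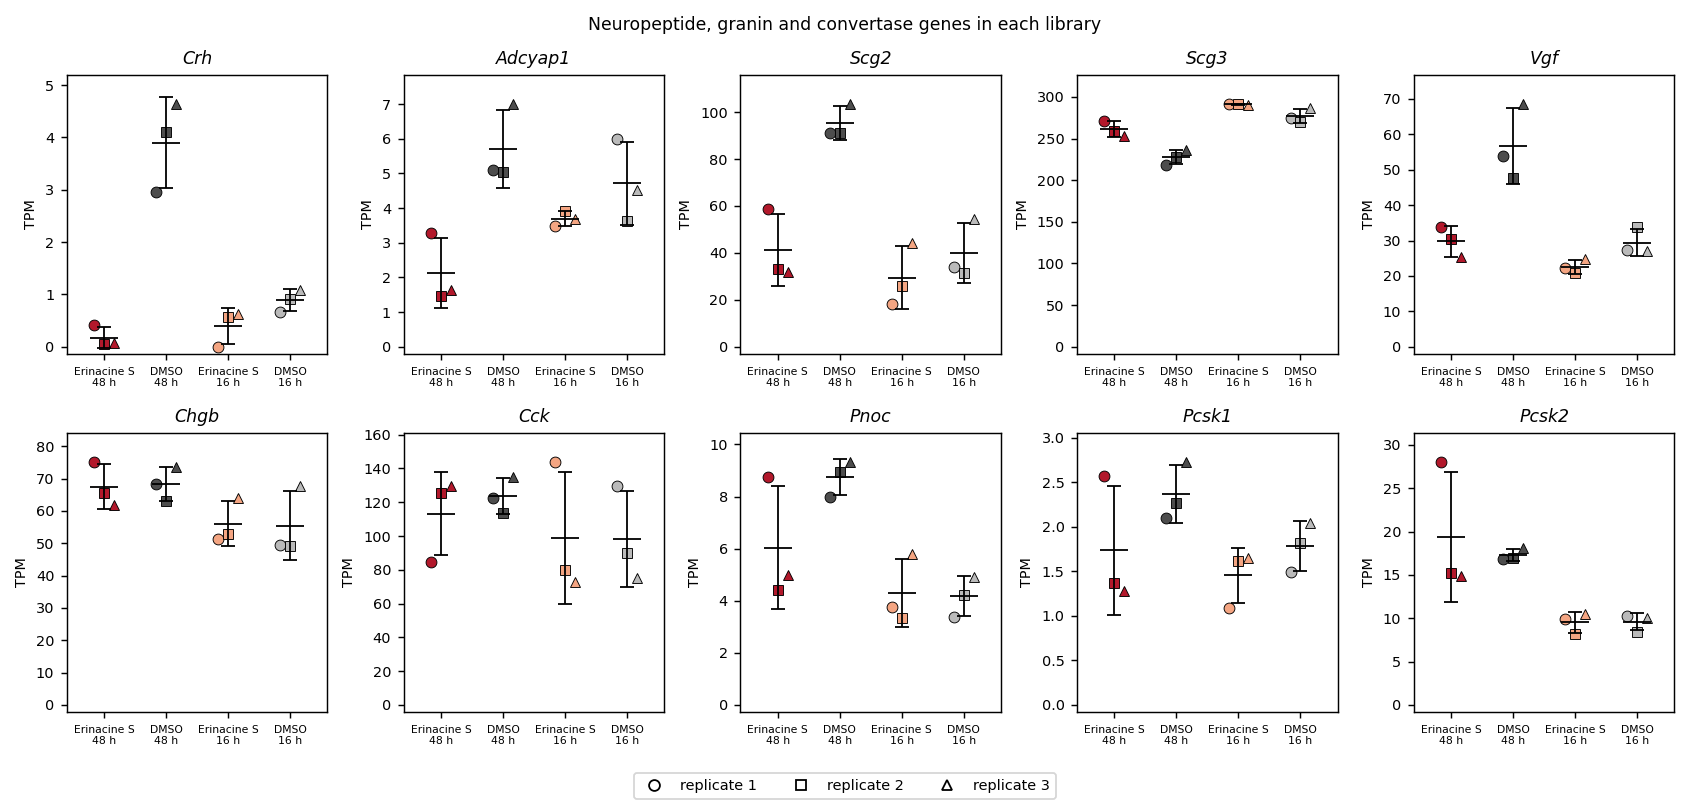
TPM (linear axis from 0) of the 10 genes in each library, with the groups erinacine S 48 h, DMSO 48 h, erinacine S 16 h and DMSO 16 h from left to right. Points are libraries, shaped by replicate number, and bars give the mean and SD of 3 libraries. Crh, Scg2, Vgf and Adcyap1 are lower in all erinacine S libraries than in all DMSO libraries at 48 h, whereas Scg3 is higher.

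Neuronal markers were high in all libraries, and 1 library differed in makeup. Pan-neuronal markers (8 genes, such as Tubb3 and Map2) summed to between 5502 and 5756 TPM with erinacine S and between 5453 and 5751 TPM in DMSO at 48 h. Erinacine S 48 h replicate 1 stood apart, with markers of dividing cells (6 genes) summing to 38.5 TPM, where the rest of the 48 h libraries had 118 to 128 TPM. Its astrocyte markers (9 genes) summed to 63.0 TPM against 126 to 150 TPM, and its inhibitory neuron markers (14 genes) to 993 TPM against 680 to 798 TPM. This library was the highest of its group for 9 of the 10 genes and the lowest for Cck. Microglial markers (9 genes) summed to between 11.2 and 22.6 TPM in erinacine S and between 29.6 and 40.6 TPM in DMSO at 48 h. Oligodendrocyte lineage markers (7 genes) summed to between 66.5 and 187 TPM in erinacine S and between 201 and 233 TPM in DMSO at 48 h, again without overlap. Markers of striatal neurons (7 genes) and of Cajal-Retzius cells (4 genes) summed highest in that same replicate 1, at 315 and 58.2 TPM, against at most 217 and 39.3 TPM in the rest of the 48 h libraries. Excitatory neuron markers (9 genes) summed to between 1443 and 1669 TPM in erinacine S and between 1535 and 1578 TPM in DMSO at 48 h. Endothelial (3 genes) and meningeal (4 genes) markers stayed under 5 TPM in all libraries. With time the pan-neuronal sum was higher in every 48 h library than in any 16 h library, where it was at most 4609 TPM. The microglial gene C1qc, named after its value was seen, was the 1 gene of the marker lists called at 48 h, with a log2 fold change of -1.48 ± 0.24 (limma adjusted p = 0.0413). None of the marker lists had a gene at 0 in all libraries of a group, and the part of these cells in the results below was not tested. In bulk RNA, fewer cells of a type and less RNA per cell cannot be told apart.

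At 48 h the peptide precursor Crh was, by the ratio of mean TPM, the member furthest below its DMSO level. Crh encodes corticotropin-releasing hormone, a stress peptide made in the cortex by interneurons (ENSMUSG00000049796, chromosome 3, 19693401 to 19695396, minus strand). It had 0.408, 0.0478 and 0.0757 TPM in the erinacine S libraries, against 2.95, 4.11 and 4.65 TPM in DMSO. All erinacine S libraries lay below all DMSO libraries, with the closest pair still several-fold apart. The log2 fold change was -2.06 ± 0.22, and the ratio of the mean TPM was 0.0454. On a log2(TPM + pseudocount) scale the value of so low a gene depends on the pseudocount, and it was -4.06 with 0.1 and -0.78 with 5.

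Adcyap1 encodes PACAP, a peptide that raises cyclic AMP in target neurons (ENSMUSG00000024256, chromosome 17, 93199422 to 93205485). It had 3.30, 1.48 and 1.63 TPM with erinacine S, against 5.09, 5.03 and 7.01 TPM in DMSO at 48 h. The groups did not overlap, and replicate 1 of erinacine S was the nearest to DMSO. Its log2 fold change was -1.13 ± 0.21, and -1.38 without that library. With a pseudocount of 0.1 it was -1.45 and with 5 it was -0.59.

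Pnoc, the precursor of the opioid-like peptide nociceptin (chromosome 14, 65400673 to 65425472), had 8.74, 4.39 and 4.98 TPM with erinacine S, against 7.97, 8.93 and 9.33 TPM in DMSO at 48 h. Replicate 1 of erinacine S lay among the DMSO libraries and the other two below them. With all libraries the log2 fold change was -0.52 ± 0.22, and without replicate 1 it was -0.78.

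Cck, the precursor of cholecystokinin and an abundant cortical peptide gene (chromosome 9, 121489824 to 121495694), had 84.9, 125 and 129 TPM with erinacine S, against 123, 113 and 135 TPM in DMSO at 48 h. Its libraries overlapped, and here replicate 1 of erinacine S was the lowest. A log2 fold change of -0.15 ± 0.26 became 0.046 without that library.

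Among the granins at 48 h, Scg2 and Vgf stood below DMSO, Scg3 stood above it and Chgb was level. Scg2 encodes secretogranin II, the source of the peptide secretoneurin (ENSMUSG00000050711, chromosome 1, 79434669 to 79440120, minus strand). It had 58.9, 33.2 and 31.8 TPM with erinacine S, against 91.1, 91.3 and 104 TPM in DMSO. All erinacine S libraries were lower, with a log2 fold change of -1.24 ± 0.31, and of -1.52 without replicate 1.

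Vgf, a neurotrophin-induced precursor of several peptides (ENSMUSG00000037428, chromosome 5, 137026392 to 137033351), had 33.9, 30.3 and 25.2 TPM with erinacine S, against 53.8, 47.8 and 68.6 TPM in DMSO at 48 h. The highest erinacine S library lay below the lowest DMSO library. On the log2 scale the difference was -0.90 ± 0.14, and it lay between -1.01 and -0.76 when single libraries were left out.

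Scg3 encodes secretogranin III, which ties granin aggregates to the vesicle membrane (chromosome 9, 75643189 to 75684056). It had 271, 259 and 253 TPM with erinacine S, against 219, 228 and 237 TPM in DMSO at 48 h. It was the only one of the 10 genes with every erinacine S library above every DMSO library at that time, and the difference was small, at a log2 fold change of 0.20 ± 0.054.

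Chgb, which encodes chromogranin B (chromosome 2, 132781278 to 132795079), had 75.2, 65.4 and 61.9 TPM with erinacine S, against 68.3, 63.0 and 73.7 TPM in DMSO at 48 h. The groups overlapped fully, with a log2 fold change of -0.019 ± 0.13.

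Both convertases overlapped between the groups at 48 h. Pcsk1, which makes the first cuts in many precursors (chromosome 13, 75089826 to 75134861), had 2.58, 1.37 and 1.28 TPM with erinacine S, against 2.10, 2.27 and 2.73 TPM in DMSO. Pcsk2, which acts later and on more sites (chromosome 2, 143546156 to 143816285), had 28.0, 15.2 and 14.8 TPM with erinacine S, against 16.8, 16.9 and 18.1 TPM in DMSO. In both genes replicate 1 was far above the other erinacine S libraries. With all libraries the log2 fold changes were -0.32 ± 0.18 for Pcsk1 and 0.097 ± 0.19 for Pcsk2. Without replicate 1 they were -0.53 and -0.19, so that the sign of Pcsk2 turned. The antisense gene Pcsk2os1 overlaps the start of Pcsk2 and averaged 3.52 TPM with erinacine S and 2.92 TPM in DMSO at 48 h, and the strand setting of the counting is not given in the sources used here.

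Counted together at 48 h, 2 of the 10 genes had positive and 8 negative log2 fold changes, with a median of -0.42, against 0.0083 over all 15623 genes tested. Groups did not overlap for 1 gene that was higher and for 4 that were lower with erinacine S. Over all genes, 10.5% were non-overlapping and higher and 8.74% non-overlapping and lower. Nothing is read from these counts, because this difference was known when the genes were chosen.

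**Figure D2:**
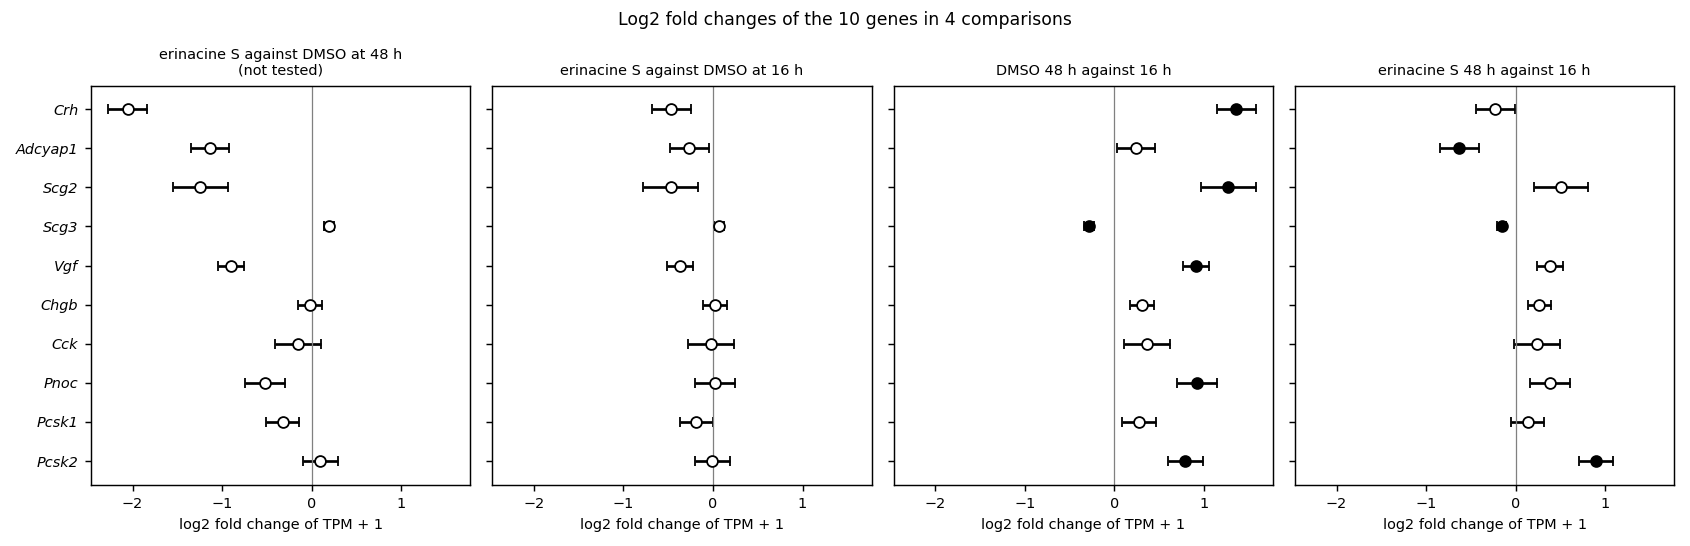
Log2 fold changes of TPM + 1 (x axis) of the 10 genes (rows) in 4 comparisons, with bars of 1 SE. Filled points passed an adjusted p of 0.05 over all genes, and the first panel was not tested. In DMSO 6 of the 10 genes have filled points between the times, where 16.1% of all genes rose and 16.6% fell. With erinacine S 3 have, where 15.1% of all genes rose and 15.5% fell. Crh and Scg2 are open there, which does not show that the time courses differ.

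At 16 h none of the genes passed the test, and their log2 fold changes lay between -0.47 and 0.071. In limma with Benjamini-Hochberg adjustment over 15623 genes, 0 of the 10 genes and 0% of all genes were called. At an unadjusted p under 0.05 there were 201 genes (1.29%), Vgf alone among the members, and without the filter on low values 6 genes and no member were called. Every member had an adjusted p of 1.00. The 16 h libraries share no sample with the 48 h comparison.

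Vgf had 22.2, 20.7 and 24.7 TPM with erinacine S, against 27.4, 33.8 and 27.2 TPM in DMSO at 16 h. The groups did not overlap. A log2 fold change of -0.37 ± 0.14 had a 95% interval of -0.68 to -0.055. Crh was listed at 0 in erinacine S replicate 1 and had 0.566 and 0.624 TPM in the other libraries of that group, against 0.673, 0.921 and 1.09 TPM in DMSO. These groups also did not overlap, though all values were near or below 1 TPM, and the log2 fold change was -0.47 with a 95% interval of -0.94 to 0.0047. Scg3 again lay higher in every erinacine S library, at 291, 292 and 291 TPM, against 275, 270 and 287 TPM in DMSO, with a log2 fold change of 0.071 and a 95% interval of -0.047 to 0.19.

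Scg2 spread widely within both groups at 16 h, with 18.2, 26.0 and 44.3 TPM in erinacine S, against 33.8, 31.4 and 54.7 TPM in DMSO. Its log2 fold change was -0.47 ± 0.31. Libraries of the same number deviated together at 16 h, and in 3 of 3 same-numbered pairs Scg2 was lower with erinacine S, as were Pcsk1, Crh and Vgf, while Scg3 was higher in 3 of 3. For Crh, Vgf and Scg3 this follows from groups that did not overlap. Such pairs were not counted over all genes, so nothing is read from them. With the number as a block 0 of the 10 genes passed. For Adcyap1 the libraries overlapped, at 3.49, 3.91 and 3.68 TPM with erinacine S, against 5.99, 3.63 and 4.51 TPM in DMSO. The remaining genes, Cck, Pnoc, Chgb, Pcsk1 and Pcsk2, had log2 fold changes between -0.18 and 0.024 with overlapping libraries. In all, 1 gene was non-overlapping and higher and 2 were non-overlapping and lower, where 2.62% and 1.56% of all genes were.

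In DMSO, Crh, Scg2, Vgf, Pnoc and Pcsk2 rose and Scg3 fell between 16 h and 48 h. These were 5 and 1 of the 10 genes at an adjusted p under 0.05 in limma, while 16.1% of all genes tested rose and 16.6% fell. Libraries of the times did not overlap for 6 genes that were higher and 1 that was lower at 48 h, as for 24.1% and 26.4% of all genes. The median log2 fold change of the 10 genes was 0.58, against -0.027 over all genes. This comparison holds the DMSO 48 h libraries that also entered the difference by which the genes were chosen, so the time course in DMSO and the 48 h difference are not independent. High 48 h values in DMSO, and with them a rise, are favoured by that choice. The counts above and the p-values of members below are given with that limit.

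Crh rose to 2.95, 4.11 and 4.65 TPM in DMSO at 48 h, against 0.673, 0.921 and 1.09 TPM in DMSO at 16 h. Crh entered the test only through this 48 h group, as its mean was under 1 TPM in each other group. The filter on low values thus favours a rise of Crh here. The groups were well apart, with a log2 fold change of 1.36 ± 0.22 (limma adjusted p = 0.000805, and up to 0.0442 over 13 alternatives, among them the fit with no filter). That value was 2.01 with a pseudocount of 0.1 and 0.59 with 5, while that of Scg2 lay between 1.13 and 1.52 in all alternatives, so the order of these genes depends on the pseudocount. Scg2 rose by 1.27 ± 0.31 (adjusted p = 0.00813) and Vgf by 0.92 ± 0.14 (adjusted p = 0.000741), both with non-overlapping libraries (log2 scale, limma). The rises of Pnoc (0.92 ± 0.22, adjusted p = 0.00870) and Pcsk2 (0.79 ± 0.19, adjusted p = 0.00932) were of the same order by limma. Those of Scg2, Pnoc and Pcsk2 did not pass when low genes were left in the test, with adjusted p of 0.0717, 0.0590 and 0.0651, the highest of 14 alternatives for each gene. Scg3 was the exception in direction and fell by 0.28 on the log2 scale (SE 0.054, adjusted p = 0.00241, limma), to 228 TPM at 48 h against 277 TPM at 16 h.

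Adcyap1 and Cck had values that overlapped between the times in DMSO, with limma adjusted p of 0.415 and 0.299. Chgb had a log2 fold change of 0.31 (adjusted p = 0.0864) and Pcsk1 of 0.28 (adjusted p = 0.273), the last with all 48 h libraries above all 16 h libraries. None of these 4 genes passed without a replicate block when all libraries were fitted. With a block within each time Chgb (adjusted p = 0.0224) and Cck (0.0433) passed, by limma. Chgb also passed without DMSO 16 h replicate 3 (0.46, adjusted p = 0.0124), 2 of 14 alternatives in all, with adjusted p of up to 0.327.

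With erinacine S, Pcsk2 rose and Adcyap1 and Scg3 fell between 16 h and 48 h. This comparison holds the erinacine S 48 h libraries by which the genes were chosen, so it is not independent of the 48 h difference either, and low 48 h values are favoured by that choice. By limma these were 1 and 2 of the 10 genes, while 15.1% of all genes rose and 15.5% fell. Libraries did not overlap for 2 genes that were higher and 2 that were lower, as for 21.2% and 23.7% of all genes. Pcsk2 had 28.0, 15.2 and 14.8 TPM at 48 h, against 9.96, 8.19 and 10.5 TPM at 16 h. Its rise was 0.90 ± 0.19 on the log2 scale (limma adjusted p = 0.00525), and it was 0.61 without 48 h replicate 1 (adjusted p = 0.00321, the lowest of 14 alternatives, which reached 0.0420). Adcyap1 fell, to 3.30, 1.48 and 1.63 TPM at 48 h, against 3.49, 3.91 and 3.68 TPM at 16 h. The fall of 0.63 on the log2 scale was just past the threshold (SE 0.21, limma adjusted p = 0.0440), as was that of Scg3 by 0.16 (SE 0.054, limma adjusted p = 0.0453). Neither call was firm. Adcyap1 passed in 4 of 13 alternatives, with limma adjusted p between 0.00496 and 0.187, and Scg3 in 5 of 14, between 0.0373 and 0.137. Both were lost when only the erinacine S libraries were fitted (0.0792 for Adcyap1 and 0.0952 for Scg3), and without any 1 of the erinacine S libraries other than 48 h replicate 1. With a replicate block within each time the adjusted p was 0.0551 for Adcyap1 and 0.0865 for Scg3.

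Crh did not pass with time in erinacine S. Its log2 fold change was -0.23, with a 95% interval of -0.70 to 0.24 (limma adjusted p = 0.455). Scg2 (0.51, adjusted p = 0.230), Pnoc (0.39, adjusted p = 0.209) and Vgf (0.38, adjusted p = 0.0615) had positive log2 fold changes that did not pass with all libraries. Vgf passed in 2 of 14 alternatives, with median-ratio scaling and without 48 h replicate 3, over a range of adjusted p from 0.0305 to 0.256. In all 3 the value was smaller without 48 h replicate 1, at 0.23 for Scg2, 0.13 for Pnoc and 0.29 for Vgf. A call in DMSO and none in erinacine S does not show that the time courses differ. The difference between the courses contains the 48 h difference with which the genes were chosen, and it was not tested for them.

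The rest of the peptide route, taken from 7 lists of other genes, had no calls between erinacine S and DMSO at 48 h outside the activity-induced genes. Of 64 tested genes in 6 lists of precursors, granin-like proteins, processing enzymes, dense-core vesicle proteins and receptors, 0 passed and 13 had an unadjusted p under 0.05 at 48 h (limma), where 0.134% of all genes passed and 8.96% had an unadjusted p under 0.05. The lists of precursors (14 of 45 genes passed the filter on low values), granin-like proteins (3 of 3), processing enzymes (12 of 12) and vesicle formation and release (14 of 15) had median log2 fold changes of -0.029, 0.15, -0.051 and 0.020. Without erinacine S replicate 1 these medians were -0.27, 0.091, -0.15 and -0.089, so that of the vesicle genes turned sign. For receptors and binding proteins of the 4 peptides (7 of 10 tested) and other peptide receptors (14 of 30 tested) the medians were -0.011 and -0.0016, and 0.044 and 0.023 without that library. Nearest to a call was Oprl1, the receptor of nociceptin, at 30.7 ± 3.67 TPM with erinacine S and 21.6 ± 0.962 TPM in DMSO (log2 fold change 0.48 ± 0.11, limma adjusted p = 0.173). Crhbp, whose product binds and sequesters corticotropin-releasing hormone, had 1.31, 0.377 and 0.266 TPM with erinacine S, against 1.44, 1.58 and 1.81 TPM in DMSO. These groups did not overlap, and the log2 fold change was -0.71 ± 0.24 (limma adjusted p = 0.383).

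Pam, the enzyme that amidates peptide ends, was lower in every erinacine S library at 48 h without passing (log2 fold change -0.30, limma adjusted p = 0.260). The vesicle priming factor Cadps was also lower in every library (-0.35, adjusted p = 0.308), and it passed in 1 of 14 alternatives, without erinacine S replicate 1 (-0.48, adjusted p = 0.0158, against up to 0.852 in the others). Pcsk1n, whose product inhibits the convertase Pcsk1, was higher in every library (0.38, adjusted p = 0.415), with 0.20 without erinacine S replicate 1.

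Of the 7 pathway lists, a comparison list of 6 activity-induced genes was the one with calls at 48 h. By limma 5 fell and none rose, with a median log2 fold change of -1.47, where 0.134% of all genes were called. The list was chosen with earlier results of these data known, so these calls are a description and no independent result. Fos, a subunit of AP-1, had 5.67 ± 1.58 TPM with erinacine S and 33.6 ± 1.47 TPM in DMSO (log2 fold change -2.40 ± 0.19, limma adjusted p = 0.000574). The nuclear receptor gene Nr4a1 fell by 1.89, Npas4 by 1.61 and Junb by 1.24 on the log2 scale (limma adjusted p of 0.000664, 0.00135 and 0.00215). Bdnf, a neurotrophin stored in dense-core vesicles, had a log2 fold change of -1.04 and did not pass (adjusted p = 0.105), but passed in 1 of 13 alternatives, without erinacine S replicate 1 (-1.22, adjusted p = 0.0199, against up to 0.396 in the others). At 16 h 0 genes of any list passed. At an unadjusted p under 0.05 (limma) there were 4 of the 6 activity-induced genes and 2 of the other 64, where 1.29% of all genes were.

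**Figure D3:**
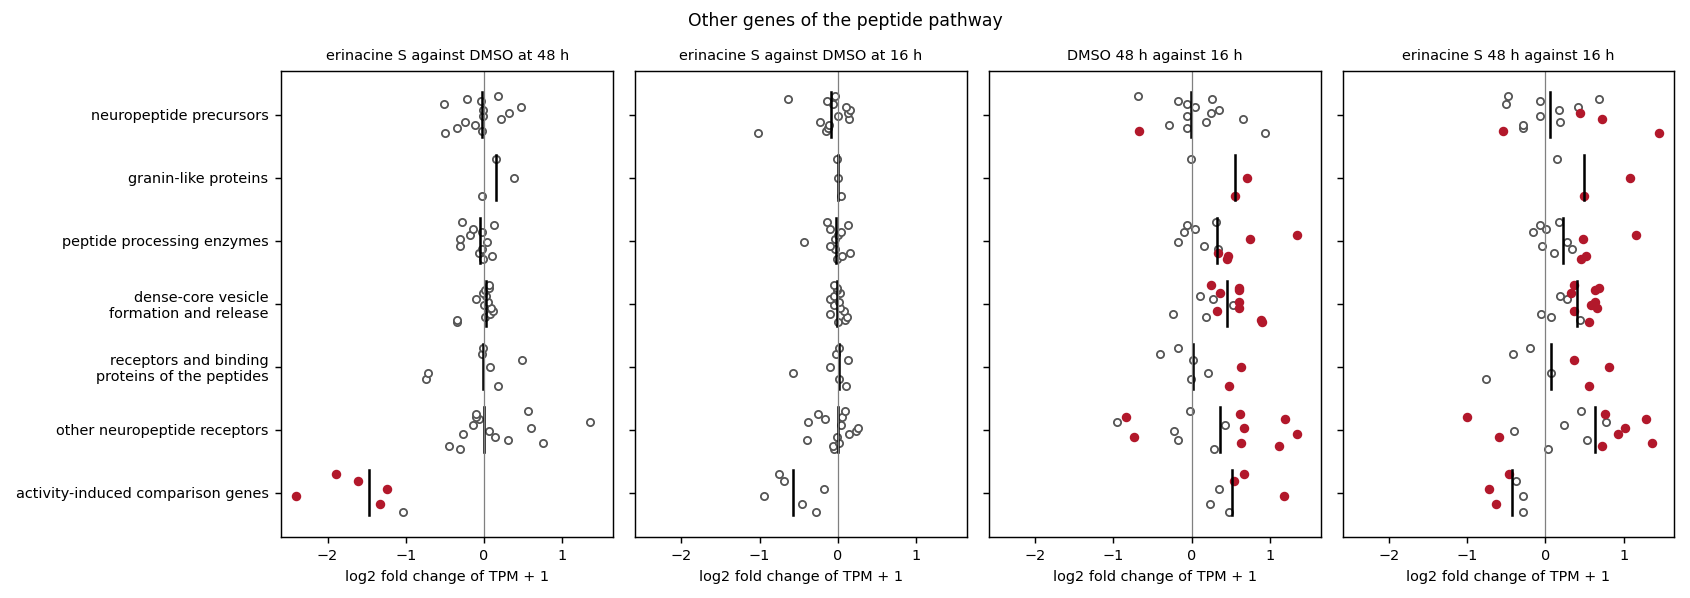
Log2 fold changes of TPM + 1 (x axis) of the tested genes of 7 lists (rows) in 4 comparisons, leaving out the 10 genes described above. Each circle is a gene, filled where it passed an adjusted p of 0.05 over all genes, and the vertical bar is the median of the list. Only the activity-induced genes have filled circles for erinacine S against DMSO, at 48 h, and both time comparisons have filled circles in the other lists.

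Between 16 h and 48 h many genes of dense-core vesicles and peptide processing rose, with erinacine S and in DMSO. With erinacine S 9 of 14 vesicle genes passed as higher and none as lower, where 15.1% of all genes passed as higher. Among them Cadps rose by 0.56 and the synaptotagmin Syt4 by 0.63 on the log2 scale (limma adjusted p = 0.00225 and 0.000372). In DMSO 9 of 14 also passed as higher and none as lower, where 16.1% of all genes passed as higher. Cadps was at 0.90 and Syt4 at 0.61 (limma adjusted p = 0.000111 and 0.000417). Of 12 processing enzymes 4 passed as higher with erinacine S and 5 in DMSO, and none passed as lower. Without erinacine S 48 h replicate 1 the counts with erinacine S were 7 vesicle genes and 3 enzymes. On the log2 scale the convertase Pcsk6 rose by 1.16 with erinacine S and by 1.34 in DMSO, and the carboxypeptidase Cpe, which trims the ends left by the convertases, by 0.52 with erinacine S and by 0.47 in DMSO. Chga, which encodes chromogranin A, rose by 0.49 with erinacine S and by 0.56 in DMSO, and Pcsk1n rose by 1.08 with erinacine S and by 0.70 in DMSO.

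Other precursors were mixed. Grp, the precursor of gastrin-releasing peptide, fell with time by 0.54 with erinacine S and by 0.67 in DMSO on the log2 scale (limma adjusted p = 0.00552 and 0.00148). The somatostatin relative Cort, Npy and Nucb2 passed as higher with time in erinacine S, 3 of 14 genes, where 15.1% of all genes did. In DMSO 0 of the 14 passed as higher, where 16.1% of all genes did. There 7 of the 14 had positive log2 fold changes, and 3 were higher without overlap. At 16 h Cort had a mean of 1.59 TPM with erinacine S and 4.26 TPM in DMSO. Npy had a log2 fold change of 0.73 with erinacine S (adjusted p = 0.0435) and 0.66 in DMSO (adjusted p = 0.0587), and its call held in 7 of 14 alternatives (adjusted p between 0.0169 and 0.231). The call of Cort held in 11 of 14 alternatives, with limma adjusted p between 0.00940 and 0.125. It was lost without erinacine S 16 h replicate 1 (0.0511), with only the libraries compared (0.0555) and with no filter on low values (0.125). Without erinacine S 48 h replicate 1 the value of Npy was 0.45 (adjusted p = 0.157). That of Cort was then 0.86, against 1.46 with all libraries. Among receptors and binding proteins of the 4 peptide precursors, the PACAP receptor Adcyap1r1 rose by 0.55 with erinacine S and by 0.48 in DMSO. Crhr1, a receptor of corticotropin-releasing hormone, rose by 0.82 with erinacine S and by 0.64 in DMSO (adjusted p = 0.00859 and 0.0267). The call in DMSO held in 7 of 13 alternatives (adjusted p between 0.00367 and 0.119), and was lost without any 1 of the 3 DMSO 16 h libraries and without DMSO 48 h replicate 1 or 3.

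Of the 14 other peptide receptor genes, 6 rose and 2 fell with time in each treatment, where 15.1% and 15.5% of all genes did with erinacine S and 16.1% and 16.6% in DMSO, with median log2 fold changes of 0.63 with erinacine S and 0.36 in DMSO. Without erinacine S 48 h replicate 1, 6 rose and 3 fell with erinacine S. Of the 6 activity-induced genes, 3 fell with time in erinacine S (median -0.42) and 3 rose in DMSO (median 0.51), by limma, against the same shares of all genes. This list was chosen with earlier results of these data known. Nr4a1 was called in both, as lower with erinacine S (adjusted p = 0.0492) and as higher in DMSO (adjusted p = 0.00957), the first of which held in 4 of 14 alternatives.

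**Figure D4:**
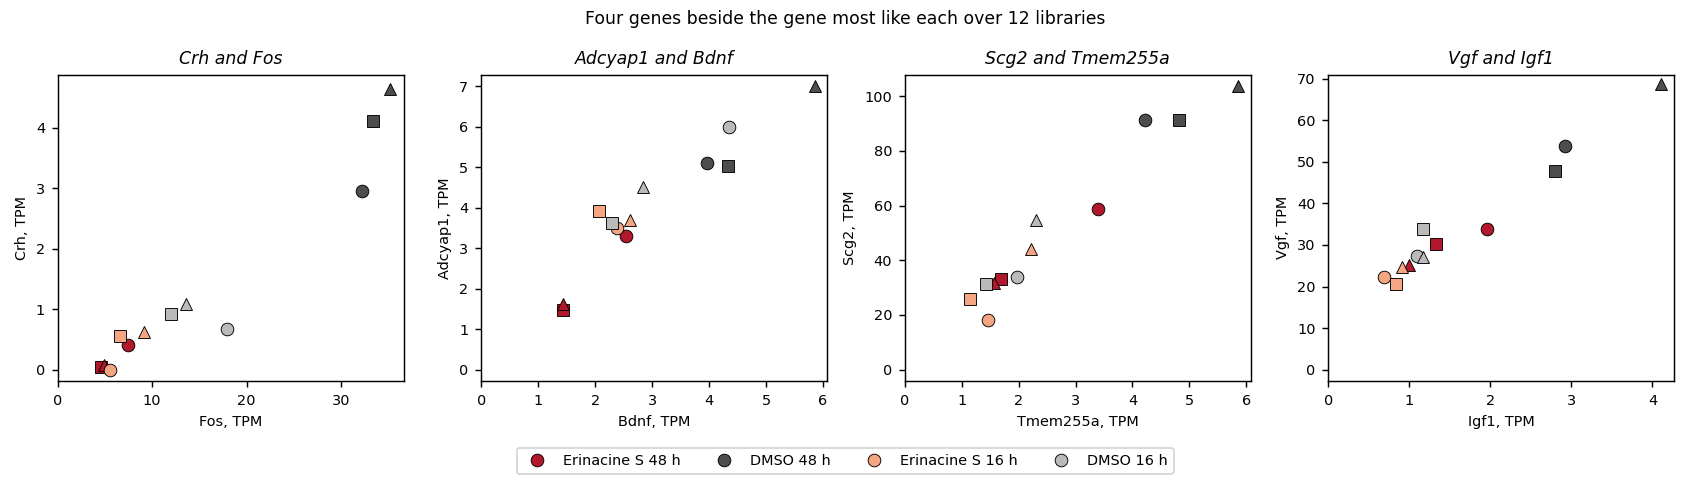
TPM of Crh, Adcyap1, Scg2 and Vgf (y axes) against the TPM of the gene most like each (x axes), with 1 point per library, coloured by group and shaped by replicate number as in the plot of TPM by library. The DMSO 48 h libraries lie at the upper right in the panels of Crh, Scg2 and Vgf, while in that of Adcyap1 DMSO 16 h replicate 1 lies among them.

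As a description, the genes whose log2(TPM + 1) followed each member most closely over the 12 libraries were listed by Pearson's r. The libraries share groups and times, so that r carries the differences between groups. Crh was most like Fos (r = 0.953), followed by Egr4 (0.938). Adcyap1 was most like Bdnf (0.931) and Mbnl2 (0.929), followed by the AP-1 gene Fosb (0.913). Scg2 was most like Tmem255a (0.950) and Vgf most like the growth factor gene Igf1 (0.976), with Sik1, a kinase gene, next (0.938). Pcsk2 was most like Amph, which encodes the synaptic protein amphiphysin (0.992). Pcsk1 was most like 5033430I15Rik, a gene without a given name (0.982), and then Gad1, which makes GABA (0.947). Among the members, Scg2 and Pnoc were the closest pair (0.899), and Scg3 and Vgf the most opposed (-0.857). Within groups, Cck ran against Crh (-0.812) and Scg2 (-0.811), as deviations from the group means over 12 libraries. At 48 h erinacine S replicate 1 was the lowest of its group for Cck and the highest for Crh and Scg2. At 16 h erinacine S replicate 1 was the highest of its group for Cck and the lowest for Crh and Scg2. How far these values rest on those libraries was not tested.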

How the data were processed

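Total RNA of 12 libraries was prepared with a strand-specific kit, per the labels' protocols. The deposited file is a matrix of TPM with Ensembl identifiers and coordinates, made by the authors. The submitters' processing notes name StringTie 2.1.3, HISAT2, SAMtools, Trimmomatic 0.36, FastQC and bcl2fastq 2.20, as well as the genome GRCm38.p5, without settings. In the deposited TPM, 0.0001 stands for 0. TPM keep no depth, so library depth is unknown and precision is the spread between libraries, whose log2 values correlated at 0.980 to 0.995 within groups.

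TPM plus a pseudocount of 1 were log2-transformed, which understates changes of low genes. The 15623 genes averaging 1 TPM or more were fitted in R 4.3.3 (limma 3.58.1, 4 group means, trended variance, two-sided tests, Benjamini-Hochberg adjustment over all of them, threshold 0.05), after a test on simulated data. Groups were taken from the sample titles. Same-numbered libraries deviated together at 16 h (r = 0.480, 0.185 and 0.510) but not at 48 h (-0.022, 0.107 and -0.192). Alternatives changed the pseudocount (0.1, 5), the filter (none, 5 TPM), the scaling (median ratio), the replicate block and the libraries fitted.

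The members and the 18 gene lists (7 of the pathway, 11 of cell type markers) were chosen with earlier results of these data known. The text names the members, per pathway list up to 4 called genes with the smallest p or, with none called, up to 2, and the closest genes by Pearson's r. Bdnf and C1qc were added after their values were seen. Motifs were searched with Python 3.11.15.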

Additional observations from a re-analysis of the deposited data

Results flagged for a closer look

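The log2 fold changes of Adcyap1 between 48 h and 16 h had opposite signs in the treatments, at -0.63 with erinacine S and 0.24 in DMSO. Each erinacine S 48 h library lay below the 16 h mean of that treatment, and each DMSO 48 h library lay above the 16 h mean of DMSO. The value in DMSO did not pass (limma adjusted p = 0.415), its libraries overlapped, and the fall with erinacine S was close to the threshold (0.0440) and passed in 4 of 13 alternatives, whose adjusted p lay between 0.00496 and 0.187. The difference between these courses contains the 48 h difference with which the genes were chosen, and it was not tested.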

How the results depend on the processing

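The 16 h comparison called 0 members under every alternative run, and 6 genes of all with no filter on low values. At 48 h the 21 genes called over all became 13 with a replicate block over all 4 groups, 12 with only the libraries compared, and 9 to 114 when a library was left out, the highest without erinacine S replicate 1. Between the times in DMSO, the 6 calls among members became 3 with no filter, and 8 with a replicate block within each time, where Chgb and Cck passed (adjusted p of 0.0224 and 0.0433, limma). Genes called in DMSO numbered 3401 to 4585 when a library was left out, against 5107 with all, and with erinacine S 3110 to 4886, against 4783. The 3 members called with erinacine S became 1 with only the libraries compared, 2 with a block within each time, and 1 to 3 when a library was left out. There the block ended the calls of Adcyap1 (adjusted p = 0.0551 within each time) and Scg3 (0.0865 within each time, 0.0591 over all 4 groups), let Chgb pass (0.0408 within each time), and ended those of Npy (0.0585 over all 4 groups) and Nr4a1 (0.0650 over all 4 groups, 0.0677 within each time). Among the members, and the list genes followed through the alternatives, the block changed no other call. List genes named without a call in a time comparison, such as Npy in DMSO, were not followed. Over all tested pathway genes the calls in DMSO went from 30 to 32 with the block over all 4 groups. With the block within each time they went to 35.

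Some uncalled differences turned sign when single libraries were left out. At 16 h the log2 fold changes ranged from -0.075 to 0.17 for Chgb, -0.33 to 0.19 for Cck, -0.18 to 0.15 for Pnoc and -0.089 to 0.086 for Pcsk2, and with time in erinacine S from -0.073 to 0.25 for Pcsk1. The cause was not tested. Without read depth, the counting error of levels near or below 1 TPM, as those of Crh, is unknown.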
